A study of Malus domestica with 5 samples.

Results

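miR164 is a conserved plant microRNA family, and the count table of apple (Malus domestica) small RNAs lists 6 of its members, mdm-miR164a to mdm-miR164f. They were taken by name from 207 named apple miRNAs and 430043 features in all. The other features are 441 candidate miRNAs and 429395 numbered repeats. The members mdm-miR164b, mdm-miR164c, mdm-miR164d, mdm-miR164e and mdm-miR164f had the same count as one another in each of the 5 libraries (32 and 29 in the juvenile, 187, 156 and 193 in the reproductive group). By contrast, mdm-miR164a had 9 and 6, and 23, 20 and 19. Thus the 6 names stand for 2 distinct sets of counts: miR164a, and the set shared by miR164b to miR164f. Sequences and lengths of the mature miRNAs were not used here, so the 2 sets are told apart by their counts alone.

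Small RNAs were counted in buds of the juvenile phase (2 libraries) and of the reproductive phase (3 libraries). An apple tree grown from seed does not flower during its juvenile phase, and the comparison asks which small RNAs differ on either side of that transition. The juvenile libraries carry a tissue label naming a juvenile-like sucker, a shoot that arises at the base of the stem, whereas the reproductive libraries are labelled as reproductive phase buds alone. Cultivar, age, treatment and the number of trees are not stated in the labels. Phase, position on the tree and any difference in cultivar, age, treatment or tree between the groups therefore cannot be told apart. The p-values reflect variation among libraries that may be technical in origin.

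miR164 guides the cleavage of messenger RNAs for a group of NAC transcription factors. In Arabidopsis these include the CUP-SHAPED COTYLEDON genes CUC1 and CUC2, which mark the boundary between a meristem and a new organ and hold back growth there. Loss of miR164 in Arabidopsis enlarges boundary domains and disturbs leaf margins and floral organs, and other NAC targets act in lateral root formation and leaf senescence. The messenger RNAs of these targets were not measured here, so all values below are levels of the miRNA.

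Of the 6 names, 3 matched a gene in the RefSeq table of apple (MIR164A, gene 103344744; MIR164D, gene 103344891; MIR164F, gene 103344748). MIR164F overlaps a locus annotated as a long non-coding RNA (LOC139195335), whereas MIR164A and MIR164D overlap no other annotated gene and lie between protein-coding genes. Because miR164d and miR164f belong to the set with identical counts, reads from these separate loci cannot be assigned to one or the other. Neither set of counts recurred in any feature outside the family. The count shared by the 5 names was not a multiple of 5 in any of the 5 libraries, so it is not a count added up once per name. Such sharing was frequent: of 36 families with at least 2 names, 18 held a single distinct set.

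The summed counts of the libraries ran from 85087230 to 97283456 in the juvenile and from 122455352 to 140173167 in the reproductive group, so depth moved with the phase. Within-group pairs of libraries differed by more than sampling noise, and no library was a copy of another. Scaling by TMM (trimmed mean of M values, a library factor that sets most features level between libraries) multiplied the sums by 0.676 and 0.580 for juvenile buds and by 1.33, 1.35 and 1.42 for reproductive buds. TMM factors therefore also separated the groups, and their part in the results is shown by the within-library measures and the other scalings below. Exact Poisson and binomial 95% intervals treat each count as that number of reads and cover counting error only.

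The set shared by miR164b to miR164f was the larger one and was higher in the reproductive libraries. Its deposited counts were 32 (exact Poisson 95% interval 21.9 to 45.2) and 29 (19.4 to 41.6) in juvenile replicates 1 and 2. In reproductive replicates 1, 2 and 3 they were 187 (161 to 216), 156 (132 to 182) and 193 (167 to 222). As deposited, every reproductive count lay above both juvenile counts, and the counting intervals of the groups did not meet. These counts are not scaled for depth, which was greater in the reproductive libraries. The share of all features that separate in this way was not counted. After scaling on the sums of counts alone, edgeR called 83.3% of all features higher.

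After TMM scaling this set had 54.4 and 65.7 normalised counts in juvenile buds, and 112, 106 and 123 in reproductive buds. The groups did not overlap, and the means were 60.0 ± 7.97 (SD, n = 2) and 114 ± 8.69 (SD, n = 3). The set rose 1.92-fold (log2 fold change 0.94, SE 0.19, adjusted p = 0.00069 in edgeR's quasi-likelihood test with Benjamini-Hochberg adjustment over all 282619 features tested). In that test 21.1% of all features and 25% of 64 distinct count sets of named miRNAs were called higher, and non-overlapping higher groups were seen in 36.1% of features and 31.2% of named sets. A call upwards was thus common in the table. In a fit of named miRNAs alone, whose biological coefficient of variation was 0.174 against 0.0758 over all features, the log2 fold change was 0.93 (edgeR adjusted p = 0.014). That fit called 12 of 64 sets higher and 20 lower.

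miR164a was scarce in every library and did not pass the test. Its deposited counts were 9 (exact Poisson 95% interval 4.12 to 17.1) and 6 (2.20 to 13.1) in the juvenile replicates, and 23 (14.6 to 34.5), 20 (12.2 to 30.9) and 19 (11.4 to 29.7) in the reproductive replicates. As deposited, the reproductive counts were the higher ones, with counting intervals that overlap between some libraries of the 2 groups. After TMM scaling juvenile buds had 15.3 and 13.6 normalised counts, reproductive buds had 13.8, 13.6 and 12.1, and the groups overlapped. The log2 fold change was -0.14 (SE 0.39, edgeR adjusted p = 0.79). miR164a reached the minimum of 10 counts only in reproductive libraries, the group where its deposited counts were higher. This holds for all of its tests with that minimum. A ratio of the summed counts under TMM, 62 reproductive over 15 juvenile, was 0.904 with an exact 95% interval of 0.508 to 1.71, so changes of moderate size in either direction were not detectable at this depth.

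**Figure D1:**
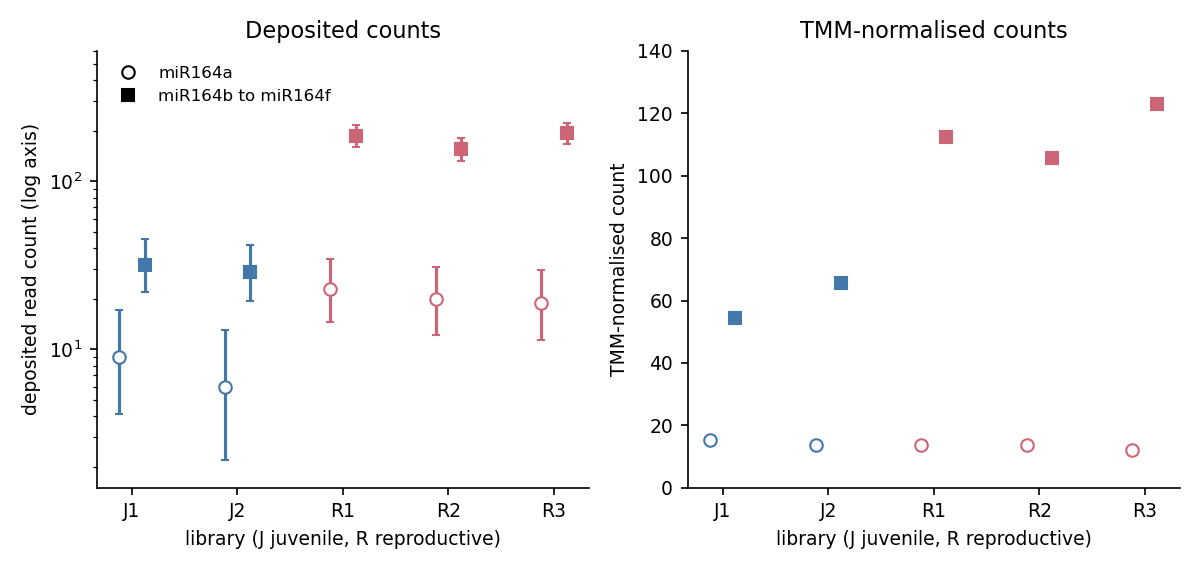
Counts of the 2 distinct miR164 sets in each library (left, deposited counts on a log axis with exact Poisson 95% intervals; right, TMM-normalised counts), with open circles for miR164a, filled squares for the set shared by miR164b to miR164f, blue for juvenile and red for reproductive libraries. The squares lie at 54.4 and 65.7 (blue) and at 106 to 123 (red) after scaling, while the circles stay between 12.1 and 15.3.

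The direction of miR164a depended on how the libraries were scaled, and that of the larger set did not. Relative to TMM, scaling on the sums of counts alone moved the median log2 fold change of all features by 1.11, and TMM computed over named miRNAs moved it by 0.59. On the sums alone, miR164a had a log2 fold change of 0.96 (edgeR adjusted p = 0.027), in a test that called 83.3% of all features higher and 2.46% lower. Because miR164a passed the count filter through its reproductive counts alone, no conclusion is drawn from that call. With TMM over named miRNAs the value was 0.45 (edgeR adjusted p = 0.32). The set of miR164b to miR164f stood at 2.05 on the sums (edgeR adjusted p = 5.9e-07) and at 1.53 with TMM over named miRNAs (edgeR adjusted p = 1.8e-05), where 55.4% of features were called higher and 7.67% lower. DESeq2 gave -0.16 for miR164a (adjusted p = 0.86) and 0.91 for the larger set (adjusted p = 0.0031), with 12.9% of features called higher.

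Within a library, where no scaling enters, miR164a made up a smaller part of the family in the reproductive phase. This share, its intervals and the family sum take each read to be counted in a single set, which the labels do not state. Its share of the miR164 counts was 22.0% (exact binomial 95% interval 10.6 to 37.6) and 17.1% (6.56 to 33.6) in the juvenile replicates. In the reproductive replicates it was 11.0% (7.07 to 16.0), 11.4% (7.08 to 17.0) and 8.96% (5.48 to 13.6). Each reproductive share was below both juvenile shares, although the counting intervals of single libraries overlap across the groups.

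The mean share of miR164a was 19.5% ± 3.40 (SD, n = 2) for juvenile buds and 10.4% ± 1.28 (SD, n = 3) for reproductive buds, a difference of -9.12 percentage points (exact permutation test, two-sided, p = 0.1, which is the floor for the 10 splits of 2 against 3 libraries, and 0.1 after adjustment over the 2 sets). In the same terms, there were 3.56 and 4.83 counts of the larger set for each count of miR164a in juvenile buds, and 8.13, 7.80 and 10.2 in reproductive buds. Shares that fell without overlap were seen for 26.2% of the 42 distinct members in the 15 families that hold at least 2 tested sets. In edgeR's diffSpliceDGE, which tests a member's change against that of its family, miR164a differed from the family by -0.63 on the log2 scale and did not pass (adjusted p = 0.23), where 9.52% of those members were called lower than their family. By this test of members the 2 sets were therefore not shown to respond differently. The family-level form of diffSpliceDGE called 60% of the 15 families, and its value for miR164 is not given here.

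**Figure D2:**
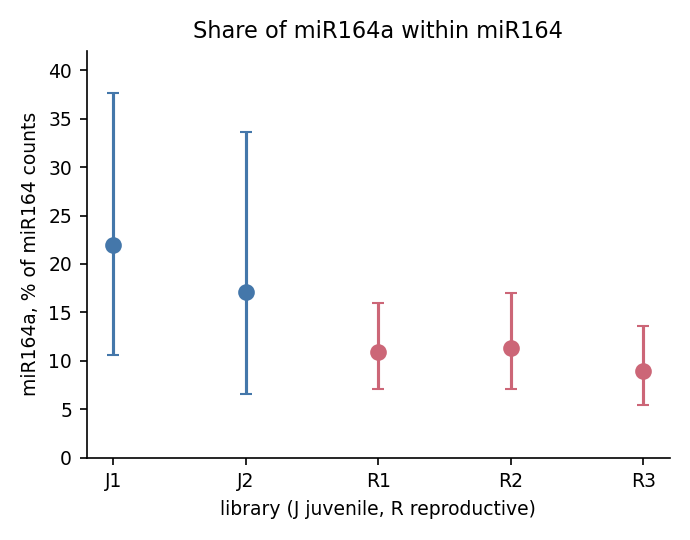
Share of miR164a in the summed counts of the 2 distinct miR164 sets, in percent, for each juvenile (J, blue) and reproductive (R, red) library, with exact binomial 95% intervals. The blue points lie at 22.0% and 17.1% and the red points between 8.96% and 11.4%, and the intervals overlap.

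Adding each distinct set once, the family had 41 and 35 counts in juvenile buds, against 210, 176 and 212 in reproductive buds. After TMM scaling these were 69.7 and 79.3, and 126, 119 and 135 normalised counts, so that the groups did not overlap. Non-overlapping higher groups were found in 29.7% of the 37 families tested. Fitted among these families, miR164 rose by 0.77 on the log2 scale (SE 0.34, edgeR adjusted p = 0.049), one of 5 families called higher (13.5%). On the sums of counts its log2 fold change was 1.89 (edgeR adjusted p = 0.0015, with 54.1% of families called higher), and with TMM over named miRNAs it was 1.38 (edgeR adjusted p = 0.0042, with 40.5% called higher). Under TMM over all features that call lay at the threshold: it ended on leaving out juvenile replicate 1 or 2 or reproductive replicate 1, 2 or 3, with log2 fold changes from 0.68 to 0.86 and edgeR adjusted p from 0.053 to 0.13. The shared set of miR164b to miR164f kept its own call in each of these fits (log2 fold changes from 0.79 to 1.06, edgeR adjusted p from 0.00043 to 0.022).

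**Figure D3:**
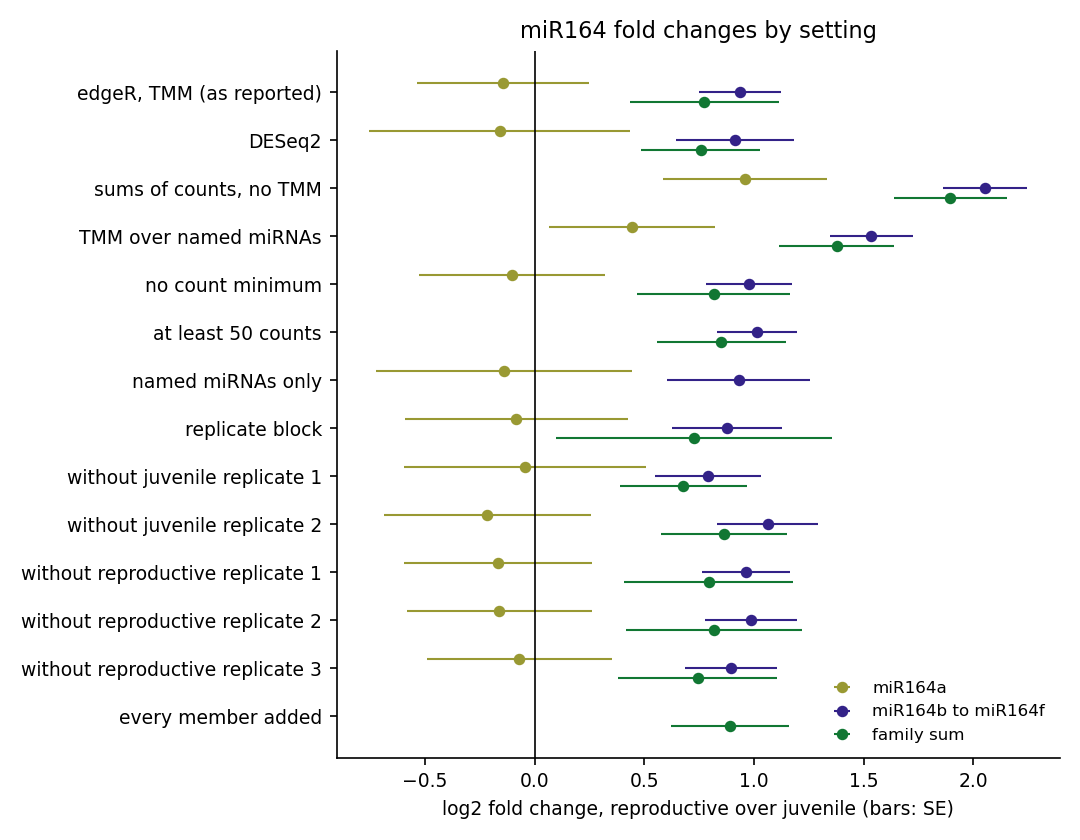
Log2 fold change of miR164a, of the set shared by miR164b to miR164f and of the family sum, reproductive over juvenile, under each scaling, filter, fit and left-out library (points, with bars for the standard error). The larger set lies between 0.79 and 2.05 throughout, and miR164a lies below 0 except on the sums of counts (0.96) and with TMM over named miRNAs (0.45).

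As a share of the counts of all named miRNAs, each distinct set taken once, miR164 was 0.0105% and 0.00990% in juvenile buds, and 0.0287%, 0.0332% and 0.0407% in reproductive buds. The means were 0.0102% ± 0.000407 (SD, n = 2) and 0.0342% ± 0.00605 (SD, n = 3), 3.35-fold apart (two-sided exact permutation p = 0.1, the smallest possible). This share depends on miR166, which had more counts than any other named family in every library. Without miR166 in the denominator the means were 0.0278% ± 0.000163 and 0.0637% ± 0.00675, which is 2.29-fold. Shares of named counts that were higher without overlap were found in 56.8% of the 37 families, so this pattern was the common one.

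miR164 held a middle to lower place among the 44 families by counts, of which some had no counts in a given library. It ranked 27 and 25 in the juvenile replicates, where 40 and 36 families had counts. In the reproductive replicates it ranked 20, 24 and 23, where 39, 39 and 41 families had counts. Its neighbours in juvenile replicate 1 were miR535 with 48 and miR7124 with 40 counts, both inside the counting interval of miR164 (29.4 to 55.6). In reproductive replicate 1 they were miR535 with 222 and miR477 with 204 counts, again inside the interval (183 to 240.4). In reproductive replicate 3 the family above, miR535, had 221 counts and the family below, miR391, had 173, which lies under the interval of miR164 (184 to 243).

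Families whose targets act in shoot meristems, organ boundaries or leaf margins were listed beside miR164. The list held miR319 (targets TCP genes), miR396 (growth-regulating factors), miR171 (GRAS genes of the HAM type), miR394 (an F-box gene of the shoot meristem), miR166 (HD-ZIP III genes), miR160 (auxin response factors) and miR390 (trigger of trans-acting siRNAs). Of these 7, under TMM, 0 rose and 3 fell in edgeR's test among families, where 13.5% of families were called higher and 37.8% lower. None of the 7 was higher at an unadjusted p under 0.05 in edgeR. After adjustment in DESeq2, 0 were higher, at which 18.9% of families were, and 3 lower (40.5% of families were). At an unadjusted p under 0.05, DESeq2 had 1 of the 7 higher. The 3 that fell were miR166, miR394 and miR160, with log2 fold changes of -1.39, -1.30 and -1.30 (edgeR adjusted p = 2.0e-06, 1.1e-10 and 0.00041). On the sums of counts 4 of the 7 were called higher, at which 54.1% of families were, and 0 lower (8.11% of families were), with 0 at an unadjusted p under 0.05 in edgeR. With TMM over named miRNAs 2 were called higher, at which 40.5% of families were, and 2 lower (21.6% of families).

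The quotient of miR164 over each of these families within a library is free of that choice, and all 7 quotients were higher in every reproductive library than in both juvenile libraries. These quotients were chosen after the data were seen, and they share miR164 as their numerator. Among ordered pairs of the 35 tested families with counts in every library, 34.5% of quotients were higher without overlap.

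The quotients over the families that fell under TMM differed most between the phases, which follows from those families being the denominators. Per 1000 miR166 counts there were 0.168 and 0.154 miR164 counts in juvenile buds, and 0.556, 0.736 and 0.944 in reproductive buds, a 4.63-fold difference of means. Per 1000 miR394 counts there were 2.70 and 2.41, and 10.8, 9.88 and 11.2, which is 4.16-fold. Per 1000 miR160 counts there were 451 and 547, and 2442, 2120.5 and 1812, which is 4.26-fold. miR160 therefore had more counts than miR164 in both juvenile libraries and fewer in all 3 reproductive libraries.

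The other quotients lay closer together. Per 1000 counts of miR171, miR164 went from 18.8 and 22.6 in juvenile buds to 34.1, 42.7 and 56.1 in reproductive buds, a 2.14-fold difference. Over miR390 the values were 136 and 235, and 299, 278 and 313 (1.60-fold), and over miR396 they were 8.65 and 12.4, and 14.1, 14.6 and 19.4 (1.52-fold). The nearest was miR319, at 1.16 and 1.15, and 1.26, 1.57 and 1.72 (1.31-fold). Two-sided exact permutation p was 0.1 for 5 of these families and 0.2 for miR319 and miR171 (0.14 and 0.2 after Benjamini-Hochberg adjustment over the 7), where 0.1 is the smallest possible.

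**Figure D4:**
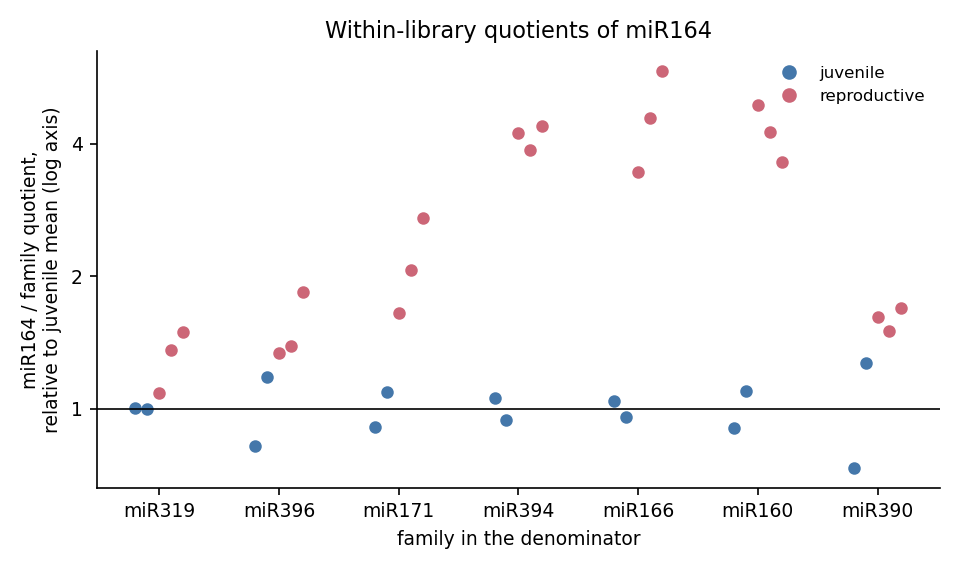
Quotient of miR164 counts over the counts of each listed family within a library, divided by the juvenile mean of that quotient (log axis), with blue points for juvenile and red points for reproductive libraries. All red points lie above the blue points of their family, with mean differences from 1.31-fold over miR319 to 4.63-fold over miR166.

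The same quotient was taken over each of the 34 other tested families with counts in every library. It was higher without overlap in the reproductive libraries for 21 of them, overlapped for 12, and was lower without overlap for 1, miR1511. Over all ordered pairs of these families, 34.5% of quotients were higher without overlap. By that number miR164 stood behind miR1511 (34) and miR393 (24) and level with miR3627 (21). Just below, at 20 each, were miR162, miR167, miR399, miR477 and miR535, so this place was not particular to miR164.

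Likeness of pattern was measured as the root mean square difference of centred log2 normalised counts over the 5 libraries, from the miR164 sum to each of 62 tested count sets of other named miRNAs. The median difference was 0.67. The 5 nearest were miR3627a to miR3627c (0.15), miR535d (0.17), miR393a to miR393c (0.21), miR167b to miR167g (0.24), and miR319a with miR319b (0.24). The nearest set had 51.0 and 45.3 normalised counts in juvenile buds, and 93.2, 71.2 and 90.5 in reproductive buds. miR535d had 81.6 and 99.6 in juvenile buds, against 129, 156 and 131 in reproductive buds. Their log2 fold changes under TMM ran from 0.40 to 1.00, a direction that follows from choosing them for likeness to miR164 over the same libraries. Within the family, miR164b to miR164f lay at 0.08 and miR164a at 0.47 from the sum, which is mostly made of the larger set.

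Each library is an extract of whole tissue, so a change in the share of cells that contain miR164 and a change of its level per cell cannot be told apart. The tissue labels were not checked against marker genes, since only small RNAs were counted.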

How the data were processed

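Small RNAs of 19 to 24 nt were cut from a gel, ligated to adapters and amplified, per the labels' protocols. The deposited values are whole-number read counts per feature without normalization. The submitters' processing notes name Bowtie 1.1.2. The genome build, mismatches and handling of multiply matching reads are not stated there or in the labels. Columns were matched to sample titles.

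The software was edgeR 4.0.16 and DESeq2 1.42.0 (R 4.3.3, limma 3.58.1). Features reaching 10 counts in 2 or more libraries were tested with edgeR's quasi-likelihood test (group as the only term, TMM factors, Benjamini-Hochberg threshold 0.05), which was tested on simulated data. The simulation changed few features, equally often up and down, so it does not bear on the choice of scaling. Families were summed over distinct count sets and fitted with the same library factors. The standard error is the log2 fold change divided by the square root of F. Normalised counts are counts divided by each effective library size over their geometric mean.

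Shares and quotients were compared by exact permutation, and diffSpliceDGE was added after the data were seen. Named beyond miR164 were the listed families, the 5 nearest patterns (prior 0.5), neighbours in rank by counts, and families beside miR164 in the comparison of quotients. Members, lists and tests were chosen with earlier results of these data known.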

Additional observations from a re-analysis of the deposited data

How the results depend on the processing

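The log2 fold change of miR164a turned from -0.14 to 0.96 on the sums of counts and to 0.45 with TMM over named miRNAs. The listed families called higher went from 0 to 4 and 2, and those called lower from 3 to 0 on the sums. Over all features, 59564 were higher and 68585 lower under TMM, against 235325 and 6957 on the sums and 156630 and 21665 with TMM over named miRNAs. Features called higher were 36375 in DESeq2 and 31259 without juvenile replicate 2. Of 37 families, 5 were called higher and 14 lower under TMM. On the sums these numbers were 20 and 3, and with TMM over named miRNAs 15 and 8. With a minimum of 50 counts, 9 were called higher and 12 lower of 30 families. Families called higher ranged from 2 to 7 without each library in turn and were 2 with the replicate block.

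With the replicate number as a block, the family's log2 fold change was 0.72 and its call ended (edgeR adjusted p = 0.40), while the larger set kept its call (0.88, edgeR adjusted p = 0.0024). The block left 46749 features higher and 55391 lower. The labels do not say that the numbers pair libraries. The deviations of same-numbered libraries from their group means had correlations of -0.24 and -0.10, and pairs of different numbers ran from -0.20 to 0.24. With 2 juvenile libraries these deviations mirror each other, so the correlations are not independent and cannot decide on pairing.

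Without each library in turn, the family's log2 fold change ran from 0.68 to 0.86 and no longer passed, that of miR164a from -0.22 to -0.05 and that of the larger set from 0.79 to 1.06. A lone juvenile library was assumed to vary like the reproductive ones. The cause of these differences was not tested. With a minimum of 50 counts, miR164a was not tested, and the larger set (1.01) and the family (0.85) kept their calls. With no minimum, or with every name added for the family, no call on miR164 changed. The share of miR164a fell by 6.72 to 11.5 percentage points without each library, and by 2.37 with every name added. All 7 quotients over listed families stayed higher in each of these settings. The 6 to 9 juvenile counts of miR164a limit what can be said of it.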
